A study of Mus musculus with 30 samples.

Results

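Ppm1g_R and Ppp2r1b_R are doxycycline (Dox) rescue clones of Ainv15, a mouse embryonic stem cell (ESC) line that expresses the reverse tetracycline transactivator. The results describe the 3 Ppm1g_R arrays without Dox against the 3 Ppp2r1b_R arrays without Dox, which are 6 of the 30 arrays of the series. Members were chosen by the clone and condition in the sample labels alone. In each clone a lentiviral short hairpin RNA (shRNA) against the named mRNA is always present, and Dox at 1 µg/ml switches on a cDNA of the same gene, described in the methods as carrying silent changes against the hairpin. Both clones were grown with Dox and then kept without it for 5 days, so both arms of the comparison were grown without induction of the rescue cDNA. The corresponding 6 arrays labelled with Dox serve as the background of the same 2 clones under induction. The cells were derived and kept with leukaemia inhibitory factor on primary mouse embryonic fibroblasts, and the arrays are of cells kept without feeders according to the methods. Sources used here do not say whether the 3 arrays of a condition came from separate clones or cultures, so p-values measure only the spread between these samples, which may be technical.

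Ppm1g encodes a metal-dependent serine/threonine phosphatase of the PPM family, a nuclear enzyme known to act on splicing factors and histones. Ppp2r1b encodes the beta isoform of the scaffold (A) subunit of protein phosphatase 2A (PP2A), on which a catalytic (C) subunit and one of many regulatory (B) subunits assemble. The alpha isoform, encoded by Ppp2r1a, is the more abundant scaffold in most tissues. ESCs are held in self-renewal by the transcription factors Pou5f1, Sox2 and Nanog together with the naive factors Esrrb, Klf4, Tbx3 and Zfp42. The comparison describes how the transcriptomes of these clones differ while neither rescue cDNA is induced.

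The hairpin targets are shown because the 2 clones differ by them. The clones also carry different rescue cDNAs and were derived separately. Effects of a hairpin and other differences between the clones therefore cannot be told apart here. Each is a 21-base sequence with 42.9% G and C, written 5′ to 3′. Capitals mark the 3 bases that were replaced in the Ppm1g rescue cDNA.
Ppm1g target: gccttgtaCtgTgcCaaatat
Ppm1g rescue site: gccttgtaTtgCgcTaaatat
Ppp2r1b target: gctccgtctcaacagtattaa
Counted from 1 at the 5′ end of the target, the changes in the Ppm1g rescue cDNA are C9T, T12C and C15T. No rescue site is printed for Ppp2r1b, because the primer listed for its silent changes differs from the listed target at 11 of 21 bases in its best ungapped match. How the Ppp2r1b rescue cDNA differs from the hairpin target is therefore not known here.

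Ppm1g and Ppp2r1b mRNA differed between the clones in opposite directions, each being lower in the clone with its own hairpin. All levels here are normalized log2 intensities of a gene's brightest probe, and each difference is Ppm1g_R minus Ppp2r1b_R. Ppm1g measured 8.61, 8.40 and 8.59 in Ppm1g_R without Dox and 9.39, 9.60 and 9.39 in Ppp2r1b_R without Dox. The groups did not overlap, and the difference was -0.93 ± 0.10 (SE, n = 3 arrays each), or 1.91-fold lower in Ppm1g_R (limma, adjusted p = 5.1e-08). Ppp2r1b measured 7.40, 7.31 and 7.29 in Ppm1g_R and 6.16, 6.49 and 6.21 in Ppp2r1b_R. Here too the groups were apart, by 1.04 ± 0.15, or 2.06-fold higher in Ppm1g_R (limma, adjusted p = 3e-06).

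With Dox the 2 targets behaved differently. Ppm1g in Ppm1g_R reached 9.76, 9.76 and 9.82, against 9.64, 9.74 and 9.19 in Ppp2r1b_R, so its 3 arrays were all above those of the other clone. This difference of 0.26 (limma, adjusted p = 0.048) stayed under the limit of 1.5-fold that a call requires, and the difference without Dox was -1.19 ± 0.15 relative to it (limma, adjusted p = 6.4e-06). Ppp2r1b remained low in its own clone with Dox, at 6.23, 6.20 and 5.84 against 7.20, 7.10 and 6.77 in Ppm1g_R, a difference of 0.94 (limma, adjusted p = 2.1e-05). The dependence on Dox was 0.11 ± 0.21 (limma, adjusted p = 0.8), and Ppp2r1b therefore does not separate the Ppp2r1b_R arrays without Dox from those with it. Where the Ppp2r1b probe lies relative to the rescue cDNA is not known here. The paper examined the targeted mRNAs of these clones under Dox by qRT-PCR, values that were not used here. It reports a complete or partial return of pluripotency gene expression with Dox. The arrays of the control clone, Control_R, without Dox read 6.28, 6.92 and 6.40 for Ppp2r1b, overlapping Ppp2r1b_R without Dox. With Dox they read 6.74, 6.52 and 6.84, above all 6 Ppp2r1b_R arrays. For Ppm1g the Control_R arrays read 10.19, 10.26 and 10.37 without Dox and 9.98, 10.16 and 10.20 with Dox. All of these were above every array of Ppm1g_R and Ppp2r1b_R, without and with Dox. The control arrays come from a set with lower raw signal.

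**Figure D1:**
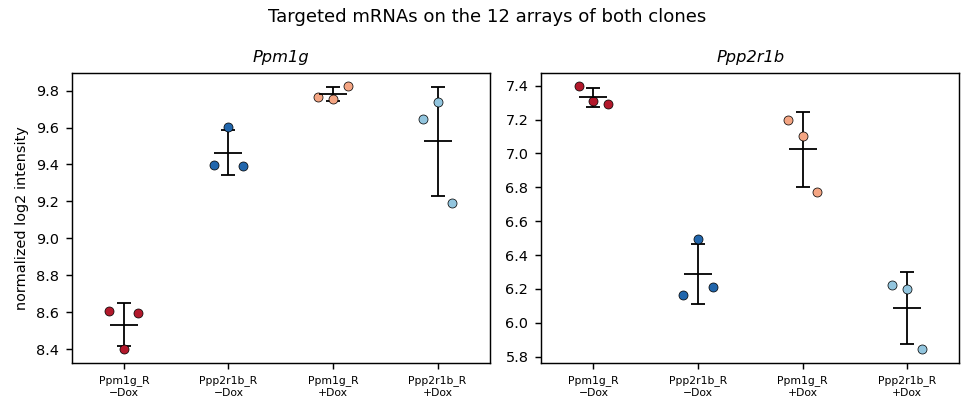
Normalized log2 intensity of Ppm1g (left) and Ppp2r1b (right) on each of the 12 arrays of both clones, with the mean and SD of 3 arrays as bars. Ppm1g is lowest in Ppm1g_R without Dox (8.40 to 8.61), while Ppp2r1b is lower in Ppp2r1b_R than in Ppm1g_R both without and with Dox.

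Few other phosphatase genes differed. Of 17 PPM phosphatase genes tested, none was higher and 2 were lower in Ppm1g_R, Ppm1g itself and Ppm1l, with a list median of -0.06. Over all 11177 genes tested, 9.36% were called higher, 11% were called lower, and the median was 0.0015. Ppm1l, a phosphatase of stress kinase pathways, measured 6.77, 6.76 and 6.85 in Ppm1g_R and 7.75, 7.87 and 7.71 in Ppp2r1b_R. The groups did not overlap, and the gene was 1.98-fold lower in Ppm1g_R (-0.99 ± 0.12, limma, adjusted p = 2.7e-07). Ppm1b, at 0.57, and Ppm1f, at -0.42, stayed under the fold limit. Among 20 PP2A subunits and partners the calls were 2 higher and 0 lower, with a median of 0.13. They were Ppp2r1b and the regulatory subunit gene Ppp2r5b, which measured 5.35, 5.83 and 6.06 in Ppm1g_R and was not well above background on the Ppp2r1b_R arrays (at least 1.1-fold). Its fitted difference of 0.62 passed the threshold, but fell to 0.58 without Ppm1g_R replicate 2 and to 0.47 without replicate 3, where the call was lost. The alternative scaffold gene Ppp2r1a (0.23) and the catalytic subunit genes Ppp2ca (0.11) and Ppp2cb (-0.40) were not called.

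Across the array, the comparison without Dox called 3022 of 15151 probes, or 19.9%, with 1449 higher and 1573 lower in Ppm1g_R. On the level of genes, 2272 were called, 1046 higher and 1226 lower, of which 658 differed at least 2-fold and 38 at least 4-fold. On the 6 arrays 12198 to 12798 probes were detected. Correlations were 0.992 to 0.994 between arrays of one clone, against 0.969 to 0.971 between arrays of different clones. The median raw signal was 34.7, 49.5 and 42.7 in Ppm1g_R and 25.6, 27.1 and 34.3 in Ppp2r1b_R, without overlap. The lowest detected raw signal was 35.4, 53.3 and 52.6 against 27.8, 29.3 and 35.5. The part of this shift in the calls and in detection was not tested. For 2194 of the 2272 genes every array of the higher clone had a detected signal, and 184 of these were detected on no array of the lower clone. In 98.3% of the called genes the arrays of the clones did not overlap, against 55.0% of all genes tested. Where a called gene had further tested probes (582 genes), all of them were called the same way for 300 genes, some for 67, none for 213, and another probe was called the opposite way for 2. In bulk RNA, fewer cells of a type and less RNA per cell cannot be told apart.

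The genes most in excess in Ppm1g_R included early embryo, streak and antioxidant genes. 2410004A20Rik (current symbol Khdc3), which encodes an oocyte and ESC protein of the subcortical maternal complex, measured 10.62, 10.61 and 10.58 in Ppm1g_R and 6.78, 6.94 and 6.63 in Ppp2r1b_R. No overlap was seen, and the level was 14.1-fold higher in Ppm1g_R (3.82 ± 0.08, limma, adjusted p = 2.9e-21). Ms4a10, of the membrane-spanning 4-domain family, read 8.86, 8.81 and 8.72 against values not well above background in Ppp2r1b_R, hence at least 9.07-fold higher. Msc, a helix-loop-helix repressor, was at 8.73, 8.78 and 8.79 against 5.87, 5.33 and 5.90, with an array of Ppp2r1b_R not detected, and its fold was 8.38. The other named genes of the 15 highest were Enox1 (7.13-fold), Gm397 (Zscan4c, 7.03-fold), the methionine sulfoxide reductase gene Msrb2 (6.75-fold), Aard (6.2-fold), Ndp52 (the autophagy receptor gene Calcoco2, 5.99-fold), the glutathione peroxidase gene Gpx2 (5.43-fold), Mixl1, Msx1 (4.83-fold), the keratin gene Krt42 (4.66-fold) and Aoah (at least 4.07-fold). Genes were eligible only where the arrays of the clones did not overlap, and the remaining 2 of the 15 have no symbol-like name.

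The genes most in deficit in Ppm1g_R included the imprinted gene Mest and the ligand gene Bmp7. Mest, a paternally expressed imprinted gene, measured 7.39, 7.35 and 7.20 in Ppm1g_R and 10.83, 10.78 and 10.90 in Ppp2r1b_R. It was 11.5-fold lower in Ppm1g_R (-3.53 ± 0.13, limma, adjusted p = 2e-16), and its 2 further probes gave -2.88 and -3.53. Chst1, a carbohydrate sulfotransferase gene, read 7.06, 7.30 and 7.16 against 10.16, 10.02 and 10.09, a 7.56-fold difference. Slc39a8, a zinc and manganese transporter gene, was at 5.78, 5.87 and 5.81 against 8.72, 8.63 and 8.48, or 6.91-fold lower. As for the highest genes, only genes whose arrays did not overlap between the clones were eligible. Bmp7, a bone morphogenetic protein, was 5.4-fold lower, with 6.12, 6.14 and 6.57 against 8.70, 8.76 and 8.67.
Lower by 5.39- to 4.02-fold were also 1190002H23Rik (Rgcc), the carbonic anhydrase gene Car4, Cyp2d22, the lipoprotein lipase gene Lpl, Zc3h6, the casein kinase gene Csnk1g1, the major histocompatibility gene H2-Ab1 and the myosin chaperone gene Unc45b. Of these, H2-Ab1 and Csnk1g1 were detected on 1 of 3 Ppm1g_R arrays. The tight junction gene Cldn11, the cornified envelope gene Scel and the spectrin gene Spnb1 (Sptb) were detected on no Ppm1g_R array and were at least 3.24-, 3.2- and 3.28-fold lower.

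**Figure D2:**
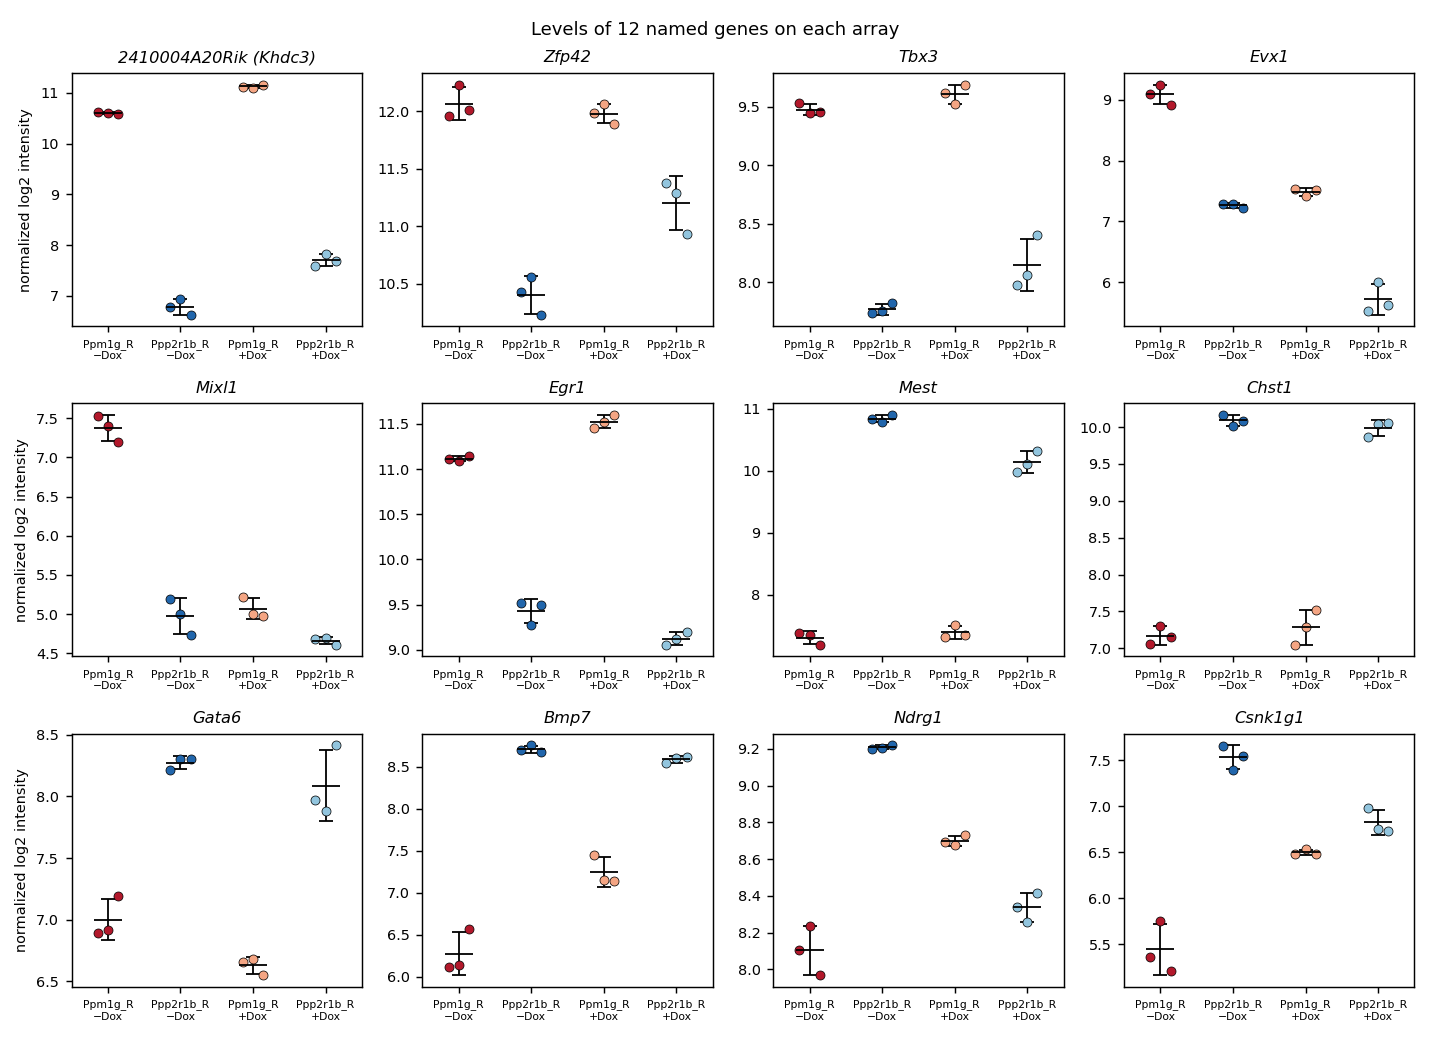
Normalized log2 intensity of 12 named genes on the 12 arrays, with the mean and SD of 3 arrays per condition as bars; each panel has its own axis range. In all 12 panels the Ppm1g_R arrays without Dox lie apart from the Ppp2r1b_R arrays without Dox, and Mixl1 is near background in the other 3 conditions.

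Naive pluripotency genes were higher in Ppm1g_R without Dox. Of 19 tested, 11 were called higher and 0 lower, with a list median of 0.75. Over all 11177 genes tested, 20.3% were called, 9.36% higher and 11% lower, and the count of each list below is to be read against this share. Tbx3, a T-box factor of naive ESCs, measured 9.53, 9.45 and 9.46 in Ppm1g_R and 7.73, 7.75 and 7.82 in Ppp2r1b_R. It was 3.27-fold higher with no overlap (1.71 ± 0.09, limma, adjusted p = 2.5e-13). Zfp42, the Rex1 gene, read 11.96, 12.23 and 12.01 against 10.43, 10.56 and 10.23, a 3.17-fold difference (1.66 ± 0.12, limma, adjusted p = 5.4e-11). Fbxo15 (2.59-fold), the threonine dehydrogenase gene Tdh (2.4-fold), Klf4 (2.36-fold) and Tcl1 (2.09-fold) followed. Dppa3, Esrrb, Klf2, Nr5a2 and Klf5 were 1.94-, 1.8-, 1.7-, 1.68- and 1.66-fold higher. Genes of LIF signal transduction in the same list were not called, with Stat3 at 0.26, Lifr at -0.30, Il6st at 0.07 and Socs3 at 0.09.

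Core ESC identity genes showed a smaller difference. Among 13 tested, 3 were higher and 0 lower (23.1% called, against 20.3% of all genes tested), and the median was 0.44. L1td1, an RNA-binding protein of ESCs, was 2.37-fold higher, with 10.99, 10.95 and 10.91 against 9.74, 9.49 and 9.87. Pou5f1, which encodes Oct4, measured 12.20, 11.85 and 12.08 in Ppm1g_R and 11.15, 11.45 and 11.16 in Ppp2r1b_R, or 1.72-fold higher (limma, adjusted p = 5.2e-08). Rif1 was 1.66-fold higher. Nanog read 12.95, 13.02 and 13.00 against 12.65, 12.32 and 12.54, and Sox2 read 9.99, 10.11 and 10.09 against 9.37, 9.58 and 9.49. Both sets of arrays were apart, but the differences of 0.49 and 0.58 were under 1.5-fold, and both passed when arrays were scaled to a common median, which gave 0.60 and 0.66. Sox2 also passed without Ppm1g_R replicate 1 (0.62) or Ppp2r1b_R replicate 2 (0.63) or 3 (0.59). The 8 ESC markers used as a check of cell identity were detected on all 12 arrays.

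Genes of the primitive streak and mesoderm were also called mainly higher in Ppm1g_R, 11 of 22 tested against 1 lower, with a median of 0.59. Mixl1, a homeobox gene of the streak, measured 7.53, 7.40 and 7.20 in Ppm1g_R and was detected on no Ppp2r1b_R array, which makes it at least 3.39-fold higher. Its second probe gave a difference of 2.30. Evx1, a posterior streak homeobox gene, read 9.10, 9.24 and 8.92 against 7.28, 7.29 and 7.22, a 3.54-fold difference (1.82 ± 0.14, limma, adjusted p = 1.4e-10). Cdx2 was at 10.58, 10.50 and 10.43 against 9.15, 9.29 and 9.12, or 2.49-fold higher.
Several members were detected on the Ppm1g_R arrays alone, with bounds of at least 2.13-fold for Eomes, 2-fold for Wnt3a and 1.3-fold for Mesp1. Isl1 (2.07-fold), Gsc (1.91-fold), Wnt3 (1.72-fold) and the Nodal inhibitor gene Lefty2 (1.67-fold) were higher as well. T, the Brachyury gene, measured 10.47, 10.41 and 10.34 against 9.78, 9.95 and 9.69. It passed at 0.60, but not without Ppm1g_R replicate 1 (0.57) or without Ppp2r1b_R replicate 3 (0.54). Without background correction, Eomes and Wnt3 were not called (adjusted p = 0.11 and 0.19, limma). Fgf8, a growth factor of the streak, was the exception, with 9.99, 10.02 and 10.05 in Ppm1g_R and 10.75, 10.93 and 10.71 in Ppp2r1b_R, or 1.72-fold lower. Nodal itself, at -0.04, was not called.

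**Figure D3:**
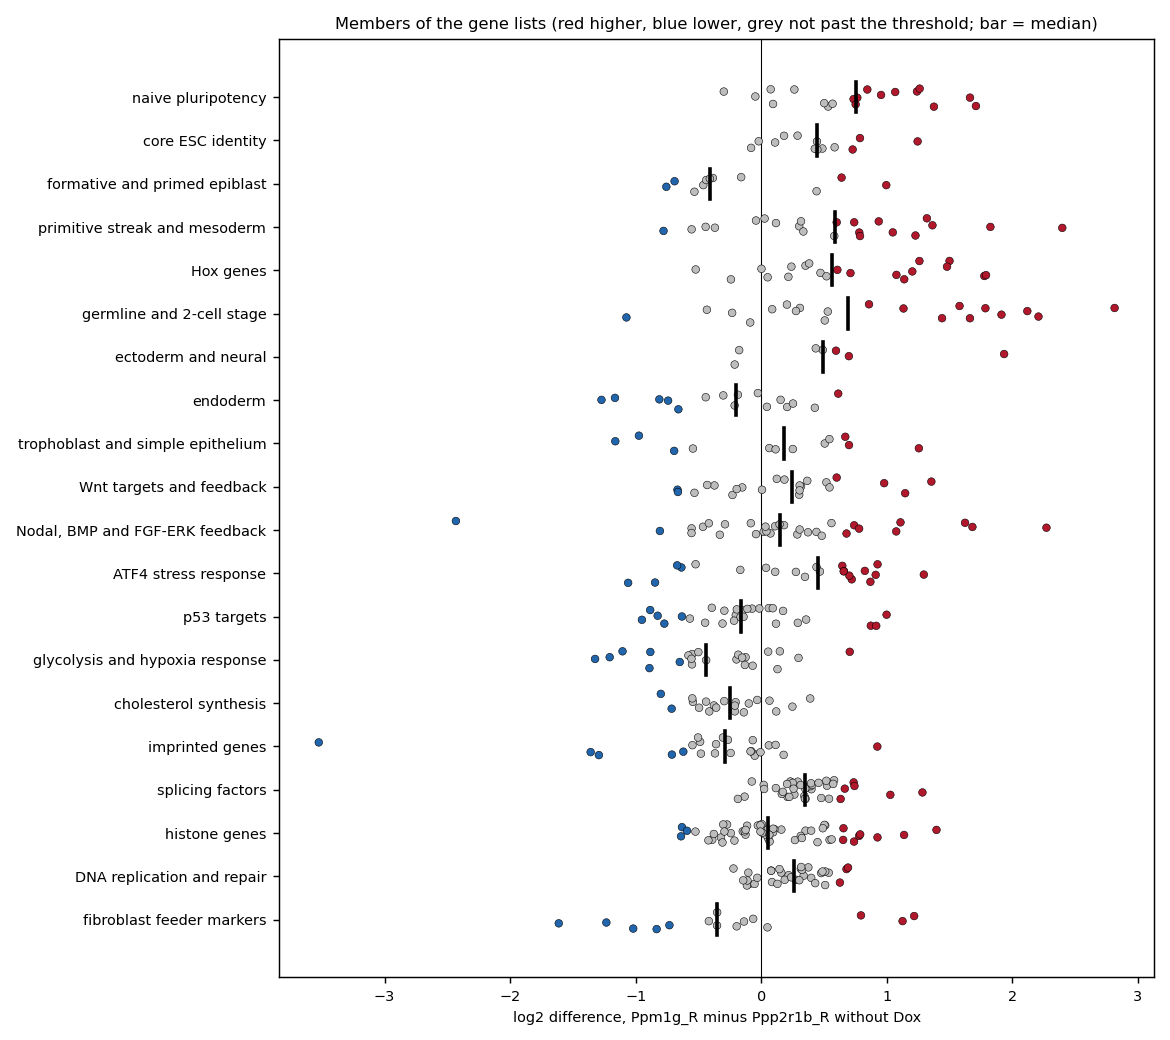
Log2 difference without Dox of each tested member of 20 gene lists, with red for genes called higher in Ppm1g_R, blue for genes called lower, grey for those not called, and a bar at the list median. The medians run from -0.44 for glycolysis and hypoxia to 0.75 for naive pluripotency.

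Other germ layer lists were split. Of 11 formative and primed epiblast genes, 2 were higher and 2 lower, with a median of -0.41. Fst, the activin antagonist follistatin, was 1.99-fold higher (8.40, 8.28 and 8.29 against 7.16, 7.27 and 7.55) and Epha2 1.56-fold higher, the latter not past the fold limit without Ppp2r1b_R replicate 3 (0.56). Wnt8a was 1.69-fold and the POU factor gene Pou3f1 1.61-fold lower. No background correction left Wnt8a uncalled (adjusted p = 0.081, limma), and median scaling left Pou3f1 at -0.57, under the fold limit.
Ectoderm and neural genes numbered 7, of which 3 were higher and 0 lower, with a median of 0.49. Gbx2, a homeobox gene of the anterior hindbrain and of ESCs, read 10.83, 10.90 and 10.99 against 8.85, 9.08 and 8.99, or 3.82-fold higher (limma, adjusted p = 2.9e-15), and the intermediate filament gene Nes was 1.62-fold higher. Crabp2 was called at 0.59 although its arrays overlapped (6.99, 6.73 and 7.25 against 6.45, 6.86 and 5.87), and the call was lost without Ppm1g_R replicate 1 (0.60) or 3 (0.46) and without Ppp2r1b_R replicate 1 (0.62) or 3 (0.33).
Endoderm genes tended the other way, with 1 of 16 higher and 5 lower and a median of -0.20. Gata6, which specifies primitive endoderm, measured 6.89, 6.91 and 7.19 in Ppm1g_R and 8.21, 8.30 and 8.30 in Ppp2r1b_R, or 2.42-fold lower (-1.27 ± 0.12, limma, adjusted p = 4.7e-09). The endocytic adaptor gene Dab2 was 1.76-fold lower. Foxa1 and Sox17 were detected on 2 of 3 Ppp2r1b_R arrays and on no Ppm1g_R array, at least 1.77- and 1.11-fold lower. The Foxa1 groups overlapped, and without background correction it was not called (adjusted p = 0.059, limma).
Trophoblast and simple epithelium genes were even, 3 higher and 3 lower of 12. Gata2 (2.39-fold) and Tead4 (1.62-fold) were higher, whereas Dlx3 (2.24-fold) and the keratin gene Krt7 (1.97-fold) were lower.

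Signalling genes gave some of the wide differences in both directions. The list of Nodal, BMP and FGF-ERK feedback genes had 8 of 31 higher and 2 lower, with a median of 0.15. Msx1, a BMP-responsive homeobox gene, measured 8.96, 8.86 and 8.80 against 6.90, 6.52 and 6.39, while the ligand gene Bmp7 was the lowest of the list. Egr1, an immediate early gene of ERK signalling, read 11.11, 11.08 and 11.14 in Ppm1g_R and 9.52, 9.28 and 9.50 in Ppp2r1b_R, or 3.21-fold higher (1.68 ± 0.07, limma, adjusted p = 5.8e-15). Etv4, an ETS factor induced by FGF, was at 8.58, 8.66 and 8.74 against 7.02, 7.06 and 7.03, or 3.08-fold higher. Neither gene's arrays overlapped between the clones, as was so for 98.3% of all called genes.
Wnt targets and feedback genes were called in 6 of 22 cases, 4 higher and 2 lower, with a median of 0.24. Notum, a secreted Wnt deacylase, was 2.21-fold and the cyclin gene Ccnd1 1.97-fold higher, and Lef1, a nuclear effector of beta-catenin, was detected in Ppm1g_R alone (at least 1.69-fold higher). The receptor gene Fzd7 was 1.59-fold lower, but at -0.54 under median scaling it was under the fold limit.

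Hox genes and germ cell genes were called mainly in one direction, higher in Ppm1g_R. Of 20 Hox genes tested, 10 were higher and 0 lower, with a median of 0.56. Hoxd4 read 7.32, 7.61 and 7.35 against 6.02, 5.39 and 5.50, with a single Ppp2r1b_R array detected, or 3.46-fold higher, and Hoxd10 read 7.64, 7.81 and 7.81 against 6.10, 5.89 and 5.95, or 3.43-fold higher. Hoxa7 (2.83-fold) and Hoxc6 (2.79-fold) came next. These are genes of 3 of the Hox clusters, and their arrays did not overlap, as was so for 98.3% of all called genes.
Germline and 2-cell stage genes were called higher in 10 of 20 cases and lower in 1, with a median of 0.69. Gm397 (Zscan4c), a marker of the transient 2-cell-like state of ESCs, measured 9.81, 9.89 and 9.83 against 7.26, 6.98 and 6.86 (2.81 ± 0.08, limma, adjusted p = 3.9e-18). Tcstv1, another gene of that state, was 3.77-fold higher, with 8.18, 7.77 and 7.76 against 6.28, 5.66 and 6.03. The X-linked homeobox genes Rhox9 (4.62-fold) and Rhox6 (4.34-fold) were higher too. Zscan4, Tcstv, Rhox, Hox and histone genes have close relatives, and a probe may not tell members of such families apart.

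Stress and metabolic lists were called in both directions. Of 22 ATF4 stress response genes, 10 were higher and 4 lower, with a median of 0.45. Chac1, a glutathione-degrading enzyme gene, measured 9.05, 9.07 and 9.06 in Ppm1g_R and 7.71, 7.75 and 7.84 in Ppp2r1b_R, or 2.45-fold higher (limma, adjusted p = 3.3e-14). The cystathionine lyase gene Cth (1.9-fold) and the arginine transporter gene Slc7a3 (1.88-fold) were higher, and the transcription factor gene Cebpb was 2.09-fold lower. Several members encode enzymes or transporters of amino acid metabolism.
The p53 list had 3 higher and 5 lower of 28, with a median of -0.16. It includes Trp53 itself, which was 2-fold higher in Ppm1g_R, with 11.32, 10.95 and 11.06 against 10.14, 10.15 and 10.05. The polo-like kinase gene Plk3 was 1.89-fold higher, and the death receptor gene Fas (1.93-fold) and the mTOR inhibitor gene Ddit4 (1.85-fold) were lower. Of 15 Bcl2 family genes, 2 were higher and 0 lower, the pro-apoptotic Bok (1.65-fold) and Bid (1.53-fold), with a median of 0.05. That is 13.3% called, against 20.3% of all genes tested. The Bid call was lost without Ppm1g_R replicate 2 (0.52) and without Ppp2r1b_R replicate 1 (0.55) or 2 (0.58), and neither gene's second probe was called (0.17 for Bok, 0.19 for Bid).
Glycolysis and hypoxia response genes were lower in 6 of 23 cases and higher in 1, and their median of -0.44 was the lowest of the lists with more than 10 genes tested. P4ha1, a collagen prolyl hydroxylase gene, read 7.70, 7.22 and 7.45 against 8.80, 8.82 and 8.72, or 2.5-fold lower (-1.32 ± 0.11, limma, adjusted p = 9e-10). Vegfa, the endothelial growth factor gene, was at 10.03, 10.06 and 10.33 against 11.46, 11.24 and 11.34, or 2.31-fold lower, and Ndrg1 (2.15-fold) and the aldolase gene Aldoc (1.85-fold) were lower as well. None of the 4 genes overlapped between clones, as was so for 98.3% of all called genes. Cholesterol synthesis genes included 2 lower, Cyp51 (1.74-fold) and Insig1 (1.64-fold), and 0 higher of 20, with a median of -0.25. That is 10% called, against 20.3% of all genes tested.
Cryptdin-related genes, which encode defensins of the gut, were lower in 3 of 7 cases and higher in 0, with a median of -0.58. Defcr-rs7 was 1.71-fold lower, at 8.79, 8.65 and 8.77 against 9.53, 9.68 and 9.33. Defcr6 was not detected in Ppm1g_R, was at least 1.14-fold lower, and lost its call without Ppm1g_R replicate 1 (-0.56) or 3 (-0.55) or Ppp2r1b_R replicate 3 (-0.56).

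Of 40 splicing factor genes, 6 were higher and 0 lower (15% called, against 20.3% of all genes tested), and the median was 0.35. Sfrs3 (Srsf3), an SR protein gene, measured 9.72, 9.98 and 9.96 against 8.53, 8.59 and 8.70, or 2.43-fold higher (1.28 ± 0.08, limma, adjusted p = 1.1e-12), and its second probe gave 1.27. Sf3b4 (2.04-fold), Sfrs2 (Srsf2, 1.67-fold) and Hnrnpa2b1 (1.67-fold) were higher on their brightest probes, but the other probes of Sf3b4 (0.39) and Hnrnpa2b1 (0.21) were not called. Under median scaling 10 splicing genes were called.
Of 52 histone genes, 8 were higher and 3 lower, or 21.2% called, against 20.3% of all genes tested. Their median was 0.05, and Hist1h2ae (2.63-fold) and Hist1h2bc (2.2-fold) led the list. DNA replication and repair genes had 3 higher and 0 lower of 34 (8.82% called), with a median of 0.26. They were the ribonucleotide reductase gene Rrm2 (1.61-fold) and the single-strand binding protein genes Rpa2 (1.6-fold) and Rpa1 (1.54-fold), and Rpa2 was under the fold limit without Ppm1g_R replicate 1 (0.56). Of 28 mitosis and checkpoint genes, 4 were higher and 2 lower (21.4% called), with a median of -0.10 that became 0.0081 under median scaling. The checkpoint kinase gene Chek2 read 8.91, 8.73 and 8.80 against 7.63, 7.54 and 7.88, or 2.19-fold higher, followed by Aurkc (1.81-fold, under the limit at 0.57 with an offset of 50) and Mad1l1 (1.71-fold). Wee1 was called at 0.62, but not without Ppm1g_R replicate 1 (0.49) or Ppp2r1b_R replicate 2 (0.56) or 3 (0.57), nor with no background correction (adjusted p = 0.18, limma).
Ribosomal protein genes numbered 5 higher and 1 lower of 59 (10.2% called), with a median of -0.07. Respiratory chain genes numbered 2 higher and 0 lower of 72 (2.78% called), with a median of 0.0022.

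Imprinted genes were lower in 5 of 24 cases and higher in 1, with a median of -0.29. Besides Mest, the Notch ligand relative Dlk1 was 2.45-fold lower, with 7.01, 6.86 and 6.67 against 8.09, 8.10 and 8.23. Slc22a18 was 2.57-fold lower on its brightest probe, but another, dimmer probe was called 0.61 the opposite way. Cobl was 1.9-fold higher, and its second probe, at -0.54, was not called. The 3 Y-linked genes tested were 0 higher and 2 lower, with a median of -0.59. Eif2s3y, which encodes a translation initiation factor subunit, measured 9.16, 9.31 and 9.26 in Ppm1g_R and 10.89, 10.62 and 11.05 in Ppp2r1b_R, or 3.05-fold lower. The Uty call (-0.59) was lost without Ppm1g_R replicate 1 (-0.54) or 2 (-0.55) or Ppp2r1b_R replicate 3 (-0.54). The only X inactivation gene tested, Rnf12, was not called (0.05, and -0.02 under median scaling).

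Adhesion and matrix genes had 2 of 30 higher and 3 lower (16.7% called, against 20.3% of all genes tested), with a median of -0.11. The integrin genes Itgb5 (2.03-fold) and Itga3 (1.75-fold) and the matrix gene Sparc (1.58-fold, under the limit at -0.49 with median scaling) were lower, and osteopontin, Spp1, was 1.81-fold higher. The markers of fibroblasts, a cell type that could remain from feeders, did not move one way. Of 15 tested, 3 were higher and 5 lower in Ppm1g_R, with a median of -0.35. Acta2, the smooth muscle actin gene, measured 13.04, 12.92 and 12.98 against 11.74, 11.81 and 11.75, or 2.33-fold higher, and all 3 of its further probes were called the same way. Tagln (2.18-fold) and Col3a1 (1.73-fold) were also higher, whereas Col6a1 (3.06-fold), Pdgfrb (2.35-fold), Loxl1 (2.03-fold), Col5a1 (1.78-fold) and Thy1 (1.66-fold) were lower. Col3a1 was detected on 2 and 1 of the 3 arrays and was not called without background correction (adjusted p = 0.059, limma).
The summed linear level of the 15 fibroblast markers was 11885 to 12550 on the Ppm1g_R arrays and 10328 to 10433 on the Ppp2r1b_R arrays without Dox, against 7942 to 8244 and 9292 to 9687 with Dox. On all 3 arrays of a condition 10 markers were detected in Ppm1g_R and 12 in Ppp2r1b_R, and 2 were detected on no array in each. Of the 23 markers listed, 8, among them Postn, Lum and Col1a2, did not pass the filter on detection. Acta2 alone gave 7768 to 8449 of this sum in Ppm1g_R and 3423 to 3584 in Ppp2r1b_R without Dox. The other 14 markers, a sum chosen after seeing the data, were lower in Ppm1g_R than in Ppp2r1b_R, with 4101 to 4266 against 6744 to 7010 without Dox and 3210 to 3262 against 4956 to 5183 with Dox. The part of fibroblast RNA in the matrix and mesoderm differences was not tested.

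The same clones with Dox gave 2020 called probes, or 13.3%, and 1575 called genes, with 689 higher (6.16%) and 886 lower (7.93%) in Ppm1g_R. These 6 arrays are not among those compared without Dox. Called in both states were 1070 genes in the same direction, which is 47.1% of those without Dox and 67.9% of those with Dox, and 3 genes in opposite directions. Across the 15151 probes the differences without and with Dox had a Pearson r of 0.768 and a Spearman rho of 0.713, given as a description, since probes share arrays and clones. Among the highest genes, Khdc3 differed by 3.82 without Dox and 3.43 with Dox, Gm397 by 2.81 and 2.63, and Gpx2 by 2.44 and 2.86. Among the lowest, Chst1 differed by -2.92 and -2.70 and Unc45b by -2.01 and -2.09. These 5 genes were detected on all 12 arrays and are examples whose dependence on Dox was not called. It was called for Mixl1, Msc, Ndp52, Enox1, Aard, Ms4a10 and Krt42 of the 15 highest. Of the 15 lowest, it was called for Csnk1g1, Bmp7, H2-Ab1, Lpl, Mest, Zc3h6 and Car4.
Naive pluripotency genes were 8 higher and 0 lower with Dox, with a median of 0.48, germline genes 9 higher and 1 lower, Hox genes 8 higher and 2 lower, and streak genes 5 higher and 2 lower. ATF4 stress response genes were 2 higher and 1 lower with Dox, against 10 and 4 without it, with medians of 0.29 and 0.45. Of the 22, a dependence on Dox was called positive for 2 and negative for 1, against 2.19% and 2.84% of all genes tested. A call in only 1 state is not a Dox dependence. Over all genes, 1199 were called without and not with Dox, and 261 of these (21.8%) were called Dox-dependent. Glycolysis and hypoxia genes were 2 higher and 2 lower, with a median of -0.0038.

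**Figure D4:**
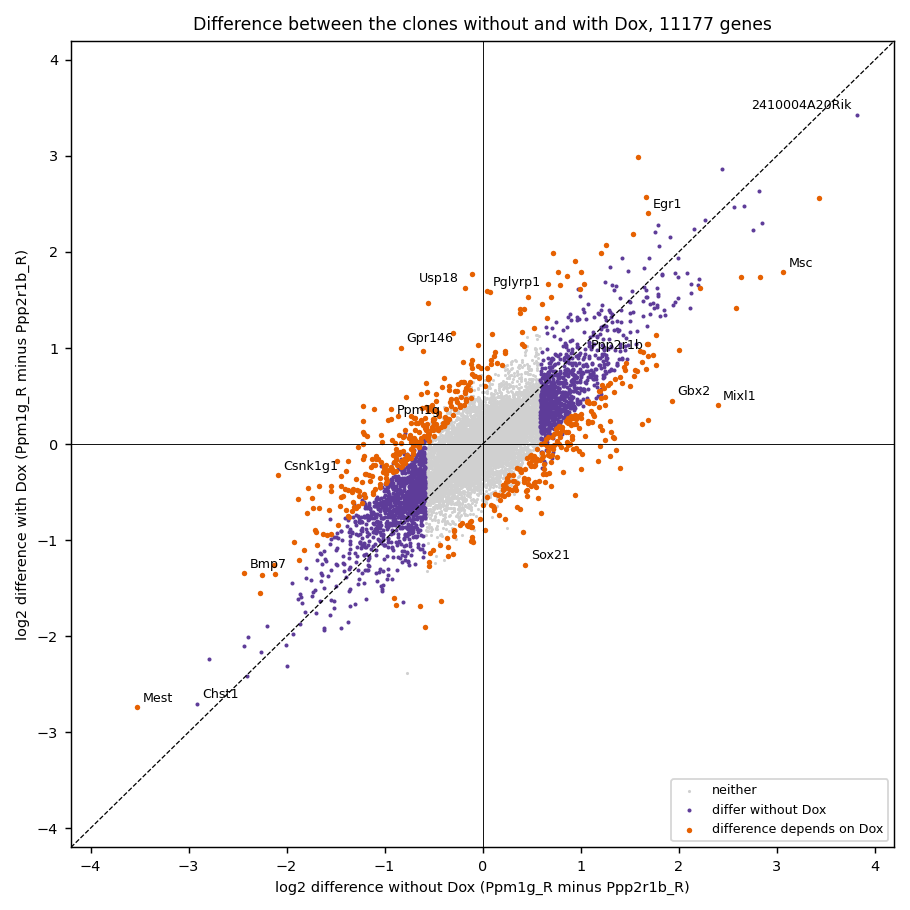
Log2 difference between the clones (Ppm1g_R minus Ppp2r1b_R) without Dox on the horizontal axis and with Dox on the vertical axis for the 11177 genes tested, with purple for genes that differ without Dox and orange for those whose difference depends on Dox. The dashed line marks equal differences; 2410004A20Rik (Khdc3) lies close to it, whereas Mixl1, Gbx2, Csnk1g1 and Usp18 lie far from it.

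Whether a difference depended on Dox was tested directly, as the difference without Dox minus that with Dox. This called 775 probes, or 5.12%, and 562 genes, 245 positive (2.19%) and 317 negative (2.84%). The value shares its arrays with both comparisons and equals the change on Dox withdrawal in Ppm1g_R minus that in Ppp2r1b_R. Mixl1 was called (limma, adjusted p = 2.8e-09) with a fitted value of 1.99, but it was detected in Ppm1g_R without Dox alone, so that the value rests on signals at background in the other 3 conditions and is no measure of size. On the arrays with Dox it read 5.22, 5.00 and 4.98 in Ppm1g_R and 4.69, 4.70 and 4.61 in Ppp2r1b_R. Its level in Ppm1g_R was at least 3.42-fold higher without than with Dox. Without background correction the dependence was not called (adjusted p = 0.35, limma).
Gbx2 (1.48 ± 0.12, limma, adjusted p = 5.1e-09) measured 10.51, 10.57 and 10.43 in Ppm1g_R and 9.94, 10.24 and 9.98 in Ppp2r1b_R with Dox. On withdrawal it changed by 0.40 in Ppm1g_R, which was not called, and fell by 1.08 in Ppp2r1b_R. The neural factor gene Sox21 (1.69) was 0.69 higher on withdrawal in Ppm1g_R and 1.00 lower in Ppp2r1b_R, and the 2 clones changed in opposite directions. Chac1 (1.42) was not called between the clones with Dox (9.01, 8.96 and 9.08 against 9.09, 9.20 and 9.14) and fell by 1.38 in Ppp2r1b_R on withdrawal, while the change of 0.04 in Ppm1g_R was not called.
Etv4 (1.42) was 1.00 higher on withdrawal in Ppm1g_R and changed by -0.41 in Ppp2r1b_R, which was not called. Centa1 (Adap1, 1.47), the palmitoyltransferase gene Zdhhc3 (1.43), Myo1f and Wnt3a were the others of the 8 largest fitted values. Wnt3a was detected on no Ppp2r1b_R array of either state and Myo1f on no Ppp2r1b_R array without Dox, so the sizes of their dependence are not measured. Centa1 was not called in a fit of the 12 arrays alone (adjusted p = 0.051, limma).

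The largest negative values came from genes that rose in Ppp2r1b_R on Dox withdrawal, and some of these also fell in Ppm1g_R. For Csnk1g1 the fall in Ppm1g_R was the larger change. D12Ertd647e (Ifi27), an interferon-stimulated gene, measured 8.85, 8.83 and 8.80 in Ppm1g_R and 9.38, 9.37 and 9.41 in Ppp2r1b_R without Dox, and 9.33, 9.14 and 9.05 against 7.74, 7.64 and 7.73 with Dox. The clones changed places, and the dependence was -2.03 ± 0.13 (limma, adjusted p = 4.1e-10). Usp18, an interferon-stimulated gene that removes the ubiquitin-like modifier ISG15, read 8.68, 8.58 and 8.78 against 8.88, 8.88 and 8.84 without Dox, and 8.45, 8.67 and 8.50 against 7.05, 6.63 and 7.05 with Dox. Its value was -1.81 ± 0.18 (limma, adjusted p = 2.4e-07), with a rise of 1.96 in Ppp2r1b_R, and the dependence was not called without background correction (adjusted p = 0.065, limma).
Gpr146 (-1.84), the casein kinase gene Csnk1g1 (-1.76) and the hydrolase gene Abhd2 (-1.61) rose in Ppp2r1b_R on withdrawal, Gpr146 at least 1.59-fold, as it was detected on no Ppp2r1b_R array with Dox, and the others by 0.71 and 1.03, while Gpr146 and Csnk1g1 fell by 0.73 and 1.06 in Ppm1g_R. The change of -0.58 in Abhd2 in Ppm1g_R was just under the fold limit. Pglyrp1 (-1.54), a peptidoglycan recognition protein gene, did not differ past the threshold without Dox (7.25, 6.98 and 7.10 against 7.30, 6.80 and 7.09) and was 1.59 higher in Ppm1g_R with Dox. Fnbp1 (-1.58) was -0.61 without Dox and 0.97 with Dox. The call without Dox was lost without Ppm1g_R replicate 3 (-0.57) or Ppp2r1b_R replicate 3 (-0.45), and another Fnbp1 probe was called 0.70 in the opposite direction.

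**Figure D5:**
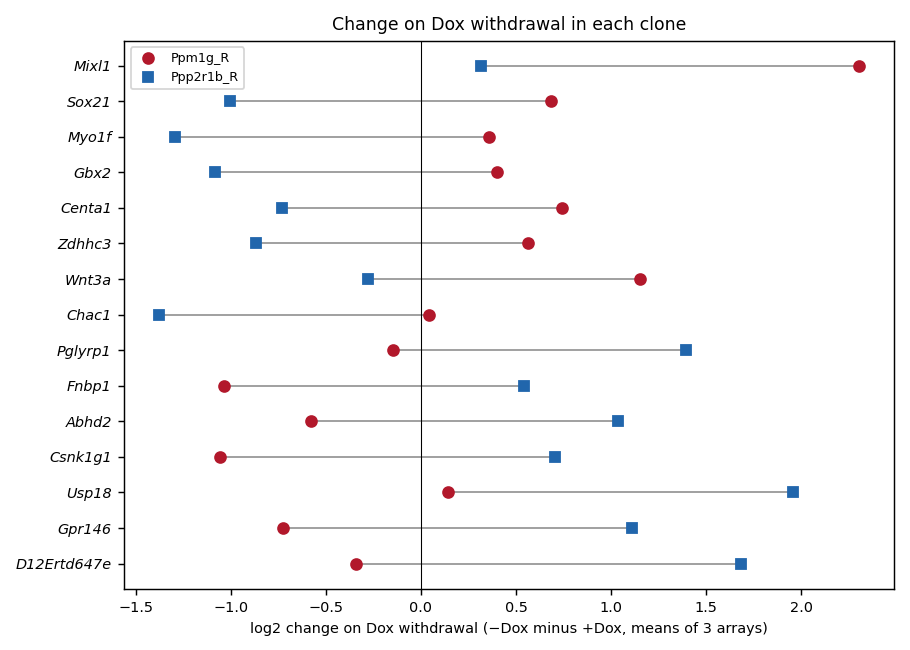
Log2 change on Dox withdrawal (without minus with Dox, means of 3 arrays) in Ppm1g_R (circles) and Ppp2r1b_R (squares) for 15 genes. They are the genes with a symbol-like name among the 8 largest positive and 8 largest negative Dox dependences. The line between circle and square is the value tested. All but Mixl1 and Usp18, 13 of the 15, lie on opposite sides of 0 in the 2 clones. The genes were picked by the size of this difference, which favours opposite signs, so the count is no separate result. Both changes were called for Sox21, Centa1, Csnk1g1 and Gpr146 only. Mixl1, Myo1f, Wnt3a and Gpr146 were at background in at least 1 condition, and Usp18 and D12Ertd647e (Ifi27) rise in Ppp2r1b_R by 1.96 and 1.69.

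Among the lists, glycolysis and hypoxia response genes were called Dox-dependent in 6 of 23 cases, all negative. Of all 11177 genes tested, 2.19% were called positive and 2.84% negative, and the list counts below are to be read against these shares. Ndrg1, a stress and hypoxia response gene, read 8.10, 8.24 and 7.97 against 9.20, 9.20 and 9.22 without Dox and 8.69, 8.68 and 8.73 against 8.34, 8.26 and 8.42 with Dox. It fell by 0.60 in Ppm1g_R and rose by 0.87 in Ppp2r1b_R on withdrawal (-1.47 ± 0.13, limma, adjusted p = 5e-08). Aldoc (-0.91) fell by 0.76 in Ppm1g_R, with levels of 10.52, 10.40 and 10.52 against 10.51, 10.38 and 10.50 with Dox. The cryptdin-related list had 5 of 7 negative and 0 positive.
Lists of cell identity divided. Naive pluripotency genes gave 3 positive and 0 negative of 19, Dppa3 (0.99), Zfp42 (0.88) and Tcl1 (0.61), of which Dppa3 fell by 0.78, Zfp42 by 0.80 and Tcl1 by 0.97 in Ppp2r1b_R. The changes of these genes in Ppm1g_R, 0.21, 0.09 and -0.36, were not called, and Tcl1 was under the fold limit with median scaling (0.53) and without Ppm1g_R replicate 1 (0.58). Primitive streak genes gave 3 positive, Mixl1, Wnt3a and Isl1, each detected on no array in at least 2 of the 4 conditions, and 2 negative, Fgf8 and T, and Isl1 was not called without background correction (adjusted p = 0.056, limma). Fgf8 rose by 1.70 in Ppp2r1b_R and changed by 0.43 in Ppm1g_R, a dependence of -1.27 ± 0.10 (limma, adjusted p = 4e-09). T rose in both clones, by 1.05 in Ppm1g_R and 1.90 in Ppp2r1b_R, from 9.30, 9.37 and 9.41 and from 7.98, 7.88 and 7.85 with Dox (-0.85 ± 0.15, limma, adjusted p = 0.00058). Evx1 and Cdx2 rose to like extents in both clones, by 1.60 and 1.54 and by 1.21 and 1.54, and no dependence was called. Ccnd1 (1.06) and the fibroblast marker Acta2 (1.07) were higher on withdrawal in Ppm1g_R, by 0.86 and 0.72, and changed by -0.19 and -0.35 in Ppp2r1b_R, neither being called.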

How the data were processed

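The study measured mRNA of rescue clones on 30 Illumina mouse WG-8 arrays, 3 for each of 10 clone and Dox conditions. The authors deposited, for 25697 probes, an intensity per array that is background-subtracted and not normalized between arrays, and a detection p-value. Per the labels the software lumi was used; its version is not given in the sources used here. On Ppm1g_R -Dox replicate 2, 46 detection p-values had become spreadsheet dates, of which 28 were converted back and 18 were taken from the probe of nearest signal.

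Intensities were normalized with neqc of limma 3.58.1 (offset 16, quantiles over 30 arrays, log2; R 4.3.3, statmod 1.5.0). Tested were the 15151 probes (11177 of 18097 gene symbols) that 3 or more arrays detected, detection being a detection p below 0.05. One limma fit had a mean for each of the 10 groups (20 residual and 3.38 prior degrees of freedom), and no array was dropped. A probe was called at a Benjamini-Hochberg adjusted p under 0.05 over all tested probes and at least 1.5-fold. The probe with the highest mean over the 30 arrays stood for a gene. No pair of arrays held identical values. A group in which no array passed a detection p of 0.05 has only a bound, its higher counterpart against the lowest detected signal, given as "at least". The number of arrays limits precision. The scripts were tested on simulated data.

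Named were the targets and PPM and PP2A genes, the 15 highest and 15 lowest genes detected on all arrays of the higher clone and not overlapping, the 8 largest positive and negative Dox-dependent genes, up to 4 called members of each list (all of the naive, core, streak and fibroblast lists), and, where fewer passed, up to 2 others. Genes without a symbol-like name were counted only. Members, lists and tests were chosen with earlier results of these data known. Current symbols come from the RefSeq table of GRCm38.p6, which matched 95.2% of tested genes, and hairpin sequences from the study's vector tables. Alternatives were other background corrections, normalizations, filters, fold limits, fits and probe summaries, the methods' t-test, and leaving out each array. The setting without background correction left out only the correction of neqc. The deposited intensities, already background-subtracted, were then set to 1 where lower and quantile-normalized.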

Additional observations from a re-analysis of the deposited data

Results flagged for a closer look

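The difference between Ppm1g_R and Ppp2r1b_R without Dox was other than that with Dox, by the interaction term of the limma fit, for 775 probes. The values that follow are the log2 difference without Dox minus that with Dox of the 55 named genes past the threshold, 27 positive and 28 negative.

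Of genes of the streak, neural, signalling and formative epiblast lists, positive values were those of Mixl1 (1.99), Gbx2 (1.48), Wnt3a (1.43), Etv4 (1.42), Ccnd1 (1.06), Isl1 (0.96) and Epha2 (0.64). Naive and core ESC genes had Dppa3 (0.99), Zfp42 (0.88), Rif1 (0.74) and Tcl1 (0.61). Genes among the highest without Dox were Msc (1.28), Ndp52 (1.16), Enox1 (1.09), Aard (0.89), Ms4a10 (0.87) and Krt42 (0.60). Further positive values belonged to Sox21 (1.69), Myo1f (1.65), Centa1 (1.47), Zdhhc3 (1.43), Chac1 (1.42), Acta2 (1.07), Bcl2 (1.00), Aurkc (0.84), Tagln (0.82) and Sfrs3 (0.67).

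On the negative side, genes among the lowest without Dox were Csnk1g1 (-1.76), Bmp7 (-1.09), H2-Ab1 (-0.88), Lpl (-0.87), Mest (-0.79), Zc3h6 (-0.77) and Car4 (-0.72). Genes of the hypoxia and p53 lists had Ndrg1 (-1.47), Aldoc (-0.91), Ddit4 (-0.72) and P4ha1 (-0.72). D12Ertd647e (-2.03), Gpr146 (-1.84), Usp18 (-1.81), Abhd2 (-1.61), Fnbp1 (-1.58) and Pglyrp1 (-1.54) were the remaining ones under -1.5. Fgf8 (-1.27), Ppm1g (-1.19), T (-0.85) and Egr1 (-0.72) were joined by Defcr6 (-0.88), Pdgfrb (-0.84), Insig1 (-0.69), Defcr-rs7 (-0.64), Dlk1 (-0.63), Slc22a18 (-0.60) and Thy1 (-0.59).

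In 8 of the 55, namely Mixl1, Myo1f, Wnt3a, Bcl2, Isl1, Ms4a10, Defcr6 and Gpr146, no array of at least 1 of the 4 conditions detected the gene, so the value printed is fitted and no measure of size.

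Other settings ended some of these calls. No background correction did so for Mixl1, Usp18, Isl1, Bcl2, Dlk1, Pdgfrb, Tagln, Defcr-rs7 and Defcr6, and median scaling for Krt42, Tcl1, Dlk1 and Defcr-rs7. A fit of the 12 arrays ended those of Zc3h6, Centa1, Aurkc, Slc22a18, Dlk1, Tagln and Defcr6, and neqc over the 12 arrays these and those of Krt42 and Rif1. An offset of 50 ended those of Ms4a10, Krt42, Rif1, Aurkc, Slc22a18, Dlk1, Thy1 and Defcr6, and leaving out the detection filter that of Dlk1.

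Leaving out 1 array ended the call for some of the genes too. Without Ppm1g_R -Dox replicate 1 it was lost for Tcl1 (0.58), Slc22a18 (-0.48) and Thy1 (-0.56), without replicate 2 for Bcl2 (0.95), Dlk1 (-0.64), Tagln (0.73) and Defcr-rs7 (-0.60), and without replicate 3 for Dlk1 (-0.54). Without Ppp2r1b_R -Dox replicate 1 it was lost for Dlk1 (-0.66), without replicate 2 for Slc22a18 (-0.53), Dlk1 (-0.65), Thy1 (-0.52), Tagln (0.67) and Defcr-rs7 (-0.56), and without replicate 3 for Krt42 (0.58), Epha2 (0.56), Bcl2 (0.94), Slc22a18 (-0.54), Dlk1 (-0.59) and Tagln (0.76). Leaving out an array with Dox ended only calls of Krt42, Slc22a18, Dlk1, Thy1, Tagln, Defcr-rs7 and Bcl2, which ranged from 0.53 to 0.58, -0.48 to -0.57, -0.49 to -0.62, -0.56 to -0.58, 0.72 to 0.74, -0.52 to -0.62 and 0.86 to 1.00 where lost.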

How the results depend on the processing

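Called probes without Dox, with Dox and dependent on Dox were 3022, 2020 and 775. They were 818, 491 and 123 with a 2-fold limit and 7712, 6446 and 2129 with no fold limit, and an offset of 50 gave 1298 with Dox and 435 dependent on Dox. Leaving out each array gave 3067 to 3152, 2038 to 2174 and 703 to 937. Other settings stayed within 1.5 times, among them 3669, 2564 and 816 without background correction, 3034, 2320 and 716 with median scaling and 2920, 1923 and 539 with neqc over the 12 arrays. The methods' t-test gave 2897 and 1926 probes at its unadjusted threshold and 2551 and 1698 after Benjamini-Hochberg adjustment. Ppm1g (-0.93) did not reach the 2-fold limit. The correlation between the states was 0.71 by Spearman and 0.85 over changed probes, and 0.741 to 0.773 without single arrays.

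Recomputing list counts under other scalings was decided after seeing the data. Changed members became 5 (core ESC), 1 (PP2A), 10 (splicing) and 5 (replication) with median scaling, 1 (Y-linked) with neqc over the 12 arrays, and 1 (Bcl2 family), 1 (PP2A), 6 (histone), 3 (mitosis), 1 (respiratory chain) and 1 (Y-linked) with an offset of 50. Averaging the probes of each gene left 0 Bcl2 family genes changed. Median scaling turned the medians of the mitosis list (0.0081) and of the X inactivation gene (-0.017). Pglyrp1, not called at 0.05, became -0.022 without Ppm1g_R replicate 1 and -0.082 without Ppp2r1b_R replicate 2, in a range up to 0.17 without single arrays. The causes were not tested. Over 18 settings, 2502 of 2652 gene values kept their direction and side of the threshold, 138 lost the call, 10 gained it and 2 changed sign. An offset of 50 ended the calls without Dox of 17 named genes, Ppp2r5b, Gpr146, Fnbp1, Rif1, Epha2, T, Mesp1, Crabp2, Sox17, Tead4, Bid, Hist2h2aa1, Aurkc (0.57), Wee1, Col3a1, Uty and Defcr6, and the methods' t-test after adjustment those of 11, Ppp2r5b, Centa1, Fnbp1, Crabp2, Foxa1, Sox17, Hist1h3h, Aurkc, Wee1, Col3a1 and Defcr6.

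Whether the replicate numbers pair the samples is not known, and correlations among so few arrays cannot settle it. Deviations of same-numbered arrays correlated at -0.0076, -0.078 and 0.0027 without Dox and 0.03, 0.083 and 0.15 with Dox. Over all pairs compared the values ran from -0.10 to 0.15. With the replicate number as a block in a fit of the 12 arrays, 2993, 1977 and 527 probes were called. That fit without the block called 2990, 1978 and 567. With the block Ppm1g was -0.93 and Ppp2r1b 1.04. Among named genes the calls without Dox of Crabp2 (adjusted p = 0.17, limma) and Foxa1 (0.06) were then lost. So was the Dox dependence of Zc3h6, Centa1, Zdhhc3, Rif1, Aurkc, Slc22a18, Dlk1, Tagln and Defcr6. Of these, only the calls of Foxa1, Zdhhc3 and Rif1 held in the fit of the 12 arrays without the block. Signal over background limits genes such as Ppp2r5b, Defcr6, Foxa1 and Sox17, for which 1 clone has only a bound.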
